A study of Danio rerio with 36 samples.

Results

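The genes described here are 9 zebrafish genes of myelin and glia: mbpa, plp1a, plp1b, mpz and mag, which encode proteins of the myelin sheath, olig1 and olig2, which encode transcription factors of the oligodendrocyte lineage, and gfap and glula, which mark radial glia and astroglia. They were chosen by symbol, with earlier results of these data already known, and all 9 were found among the 30490 genes of the deposited gene table. The study compared wild-type zebrafish with kctd15 mutants, both kept at the same temperature and sampled whole, as 1 somite, 25 hpf and 2 day embryos (hpf is hours post fertilization) and as 5 day, 9 day and 14 day larvae. Each of the 12 groups held 3 biological replicates, which makes 36 polyA RNA libraries. The labels name no treatment, and do not give the strain, the allele, the number of animals in a library, or whether kctd15a, kctd15b or both are mutated.

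Myelin is the stack of membrane that oligodendrocytes in the central nervous system and Schwann cells in peripheral nerves wrap around axons. Zebrafish begin to make it in the first days of life, and the genes for its structural proteins are switched on as the wrapping cells mature, after lineage factors such as Olig2 and Sox10 have set their fate. Radial glia, which span the wall of the neural tube, are the progenitors of neurons and oligodendrocytes and keep many functions of astrocytes in fish. KCTD15 is a BTB-domain protein known to restrain neural crest formation, and the neural crest gives rise to Schwann cells.

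Each library held between 5.51 and 12.5 M estimated counts (M is mega), with mutants at 25 hpf the shallowest (5.51 to 6.67 M, against 7.93 to 10.8 M in wild type). RNA of kctd15a was higher in mutants at all 6 stages (log2 fold change 0.60 at 1 somite and 1.71 to 1.96 later), and kctd15b was higher from 25 hpf on (0.63 to 1.18) but not at 1 somite (-0.18, adjusted p = 0.801). A lesion need not lower RNA, so these values do not check the genotype labels. Levels below are CPM (counts per M counts of a library) on library sizes scaled over all 36 libraries, given as mean ± SD with n = 3. Log2 fold changes are given ± SE from the edgeR fit of the groups compared, with its own scaling, and p-values are adjusted over all genes tested in that fit, with a threshold of 0.05. Shares of all genes are given for calls at this threshold only, not for an unadjusted p or for groups that do not overlap. Non-overlap of 2 groups of 3 libraries describes those libraries and is not a test. In whole animals, fewer cells of a type and less RNA per cell cannot be told apart, and levels of different genes are not compared because CPM does not correct for transcript length.

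In wild type the structural myelin genes did not share a single course. RNA of mbpa and plp1b came up between 2 and 5 day and again between 9 and 14 day. plp1a was highest at 25 hpf and had fallen by 5 day, and mpz had an early level at 25 hpf, a low at 2 day and a later rise to 14 day. The highest means of olig2, gfap and glula were early, at 1 somite, 25 hpf and 1 somite. glula rose again from 2 to 5 day and from 9 to 14 day, as mbpa, plp1b and mpz did, but fell in the 2 steps before 2 day. The stage of the highest mean was the same in both genotypes for 8 of the 9 genes. The exception was olig2, whose highest mean was at 1 somite in wild type and at 25 hpf in mutants. Not every peak was resolved. The wild-type olig2 libraries of 1 somite overlapped those of 2 day. Overlap with the next highest stage was also seen for olig1 in both genotypes (2 and 5 day) and for wild-type mag (5 and 14 day).

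**Figure D1:**
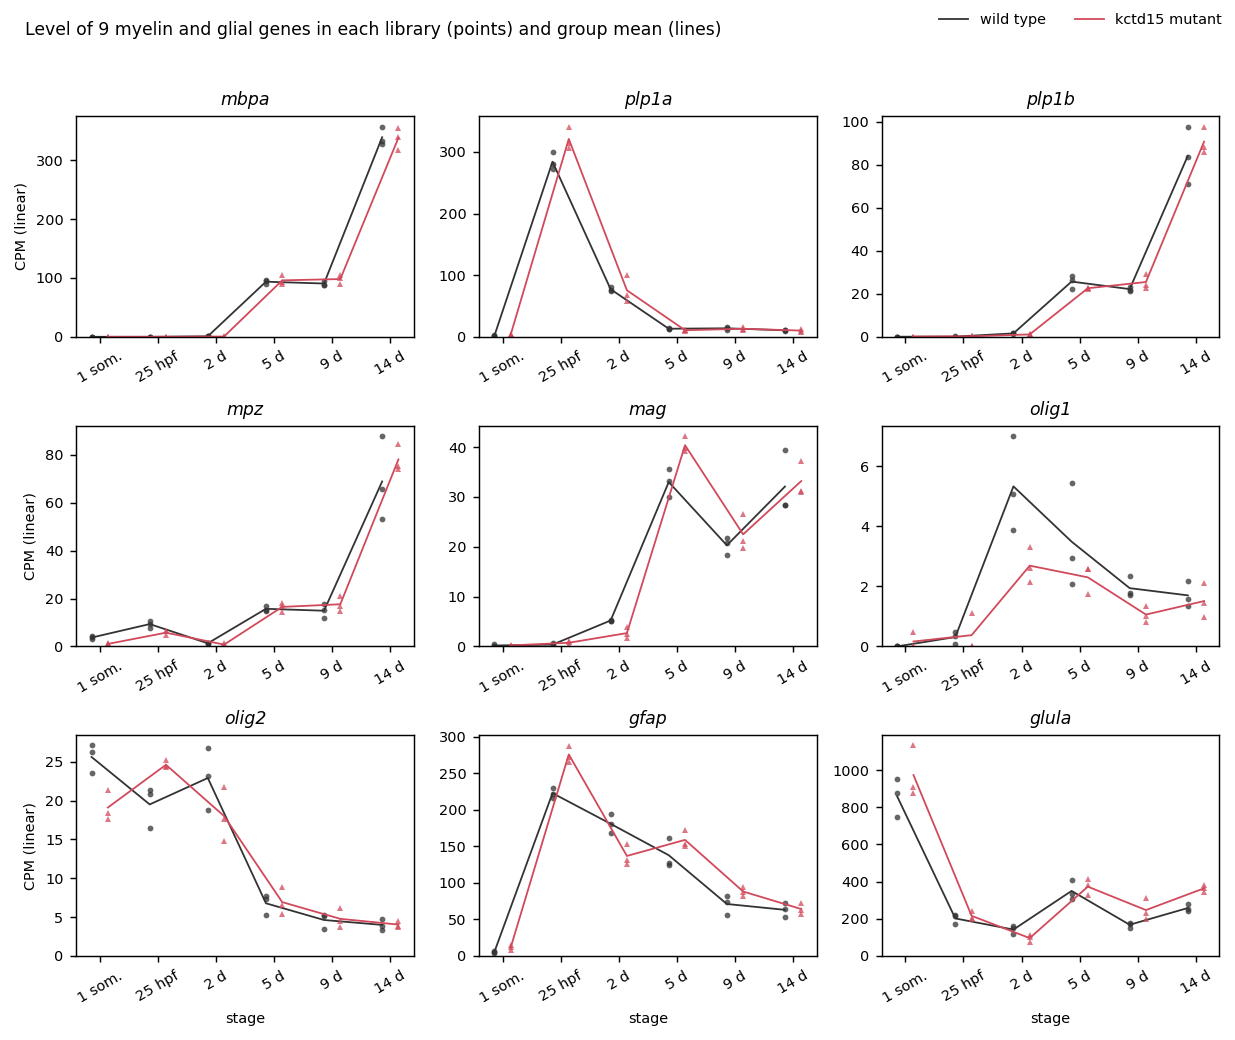
Level of each of the 9 genes in every library (points, wild type as circles and mutants as triangles) and the group means (lines), in CPM on a linear axis with a scale of its own in each panel, against stage. mbpa reached means of 339 CPM in wild type and 338 in mutants at 14 day, while plp1a peaked at 284 and 321 CPM at 25 hpf.

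mbpa encodes myelin basic protein, which holds the cytoplasmic faces of the myelin membrane together. Only 21.2% of the counts deposited under mbpa lie in the transcript matched to it here, and the source of the rest was not identified. The gene was at 0 counts in all 12 libraries of 1 somite and 25 hpf, which allows 0.101 CPM in wild type at 1 somite and 0.103 at 25 hpf (3 counts over a group, counting error only). The 3 wild-type libraries held 1.04, 0.603 and 0.892 CPM at 2 day, then 94.5, 89.3 and 96.9 at 5 day. Every 2 day library was above every earlier one (20 counts over the 2 day group against 0 at 25 hpf). With 3 counts set for the 25 hpf group, the 2 day group was 8.80-fold higher. That ratio leaves out the counting error of the 20 counts, so it is not a lower bound. From 2 to 5 day mbpa rose by 6.76 ± 0.18 on the log2 scale, 109-fold (edgeR adjusted p = 1.68e-10). It lay at 94.3, 88.5 and 88.7 CPM at 9 day, a difference from 5 day of -0.01 ± 0.10, and at 327, 332 and 357 CPM at 14 day. The 14 day libraries were all above the 9 day libraries, and the rise was 1.91 ± 0.11 (edgeR adjusted p = 4.31e-06).

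plp1b encodes one of the zebrafish proteolipid proteins, the membrane-spanning proteins that join the outer faces of myelin. Its wild-type libraries held 0 to 2 counts each at 1 somite and 25 hpf. At 2 day they held 1.17, 1.81 and 1.78 CPM, and the ratio of the 2 day to the 25 hpf group was 16.7 (38 counts against 3, 95% counting interval 5.30 to 84.7). The groups did not overlap. plp1b then rose by 3.99 ± 0.21 to 28.3, 22.3 and 26.5 CPM at 5 day (edgeR adjusted p = 2.99e-08), lay at 21.4, 21.9 and 23.3 CPM at 9 day (-0.17 ± 0.13, adjusted p = 0.297) and rose by 1.93 ± 0.13 to 97.8, 71.2 and 83.5 CPM at 14 day (edgeR adjusted p = 1.38e-05). The rises of plp1b from 2 to 5 day and from 9 to 14 day fell in the same steps as those of mbpa.

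plp1a, the other proteolipid protein copy, ran in the opposite order. Its wild-type libraries held 1.58, 2.34 and 1.33 CPM at 1 somite and 280, 273 and 300 CPM at 25 hpf, a rise of 7.36 ± 0.15 on the log2 scale or 164-fold (edgeR adjusted p = 9.03e-15). It fell by 1.80 on the log2 scale to 74.6, 76.7 and 80.2 CPM at 2 day and by 2.57 to 12.8, 14.2 and 12.3 CPM at 5 day (SE 0.10 and 0.12, edgeR adjusted p = 4.28e-09 and 1.39e-08). Neighbouring groups did not overlap up to 5 day. At 9 day plp1a lay at 11.7, 13.9 and 15.9 CPM and at 14 day at 10.2, 11.0 and 10.3 CPM, and neither step passed (0.11 ± 0.15, adjusted p = 0.563, and -0.39 ± 0.16, adjusted p = 0.115).

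mpz encodes myelin protein zero, an adhesion protein of peripheral myelin that in fish is also made by oligodendrocytes. In wild type it rose by 1.39 ± 0.21 from 4.17, 3.01 and 3.87 CPM at 1 somite to 9.33, 7.89 and 10.7 CPM at 25 hpf (edgeR adjusted p = 2.09e-05). All 3 libraries at 2 day were lower than any earlier one, at 1.43, 1.33 and 1.15 CPM, a fall of 2.75 on the log2 scale with an SE of 0.25 (edgeR adjusted p = 4.18e-07). mpz then rose by 3.56 ± 0.21 to 15.4, 14.6 and 17.0 CPM at 5 day, did not pass from 5 to 9 day (15.1, 17.6 and 11.9 CPM, -0.03 ± 0.16) and rose by 2.22 ± 0.20 to 87.8, 53.3 and 65.7 CPM at 14 day. These 2 rises fell in the steps in which mbpa and plp1b rose (edgeR adjusted p = 7.86e-08 and 6.18e-05).

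mag encodes myelin-associated glycoprotein, which sits on the inner myelin layer facing the axon. Only 0.3% of the counts deposited under mag lie in the transcript matched to it here, and the source of the rest was not identified. Its wild-type libraries held 0.606, 0.0886 and 0.384 CPM at 25 hpf and 5.19, 5.19 and 5.22 CPM at 2 day, a rise of 3.97 ± 0.41 (edgeR adjusted p = 1.57e-06). At 5 day they held 33.3, 29.9 and 35.7 CPM, a further rise of 2.65 ± 0.15. Neither pair of neighbouring groups overlapped. Unlike mbpa, plp1b and mpz, mag fell from 5 to 9 day, by 0.66 on the log2 scale with an SE of 0.13, to 18.3, 20.8 and 21.8 CPM (edgeR adjusted p = 0.00147), although the difference between these genes was not tested. It rose by 0.66 ± 0.15 to 39.4, 28.4 and 28.4 CPM at 14 day (edgeR adjusted p = 0.0137), which missed the threshold without wild type 1 of 9 day (0.0525) and with library sizes alone as scaling (0.0723).

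olig1 and olig2 encode basic helix-loop-helix factors, and Olig2 is needed for motor neurons as well as oligodendrocytes. In the GRCz12tu annotation they lie near each other on chromosome 9 with 1 gene between them. olig1 was at 0 counts in wild type at 1 somite and held 9 counts over the group at 25 hpf. With 3 counts set for the 1 somite group this was 3.07-fold higher, leaving out the counting error of the 9 counts. olig1 rose by 4.17 ± 0.44 from 0.485, 0.355 and 0.0959 CPM at 25 hpf to 3.89, 7.0 and 5.09 CPM at 2 day (edgeR adjusted p = 2e-06). Later wild-type means were 3.49, 1.94 and 1.70 CPM at 5, 9 and 14 day, and no step between them passed.

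olig2 had its RNA before olig1 had any. Its wild-type libraries held 26.2, 23.5 and 27.2 CPM at 1 somite, 20.8, 16.5 and 21.3 CPM at 25 hpf and 23.1, 26.7 and 18.8 CPM at 2 day. The 1 somite libraries were above all 25 hpf ones and overlapped those of 2 day. The first step passed (-0.35 ± 0.13, edgeR adjusted p = 0.0216) but was lost without wild type 2 of 25 hpf (0.144) and with library sizes alone as scaling (-0.05, 0.696), a scaling that moves the median of all genes in this step from 0.121 to 0.42. olig2 fell by 1.78 on the log2 scale from 2 to 5 day, to 7.36, 5.23 and 7.75 CPM (SE 0.19, edgeR adjusted p = 9.64e-06), with no overlap. Its means at 9 and 14 day were 4.63 and 4.0 CPM.

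gfap encodes the intermediate filament protein of radial glia and astrocytes. Of the counts deposited under gfap, 55.6% lie in the transcript matched to it here, and the source of the rest was not identified. Wild-type libraries held 5.47, 4.35 and 7.01 CPM of gfap at 1 somite and 222, 216 and 230 CPM at 25 hpf, a rise of 5.36 ± 0.14 or 41.0-fold (edgeR adjusted p = 7.08e-14). After that every later group mean was lower than the one before it. The 2 day libraries held 195, 168 and 181 CPM (-0.22 ± 0.10, adjusted p = 0.0729) and the 5 day libraries 128, 124 and 162 CPM. The fall from 2 to 5 day passed (-0.40 ± 0.13, edgeR adjusted p = 0.0179), and was lost without wild type 1 of 2 day (0.0562) or wild type 1 or 2 of 5 day (0.0787 and 0.10), and with library sizes alone as scaling (-0.29, 0.0576). From 5 to 9 day gfap fell by 0.92 on the log2 scale to 56.8, 74.1 and 82.7 CPM (SE 0.15, edgeR adjusted p = 0.000678), and 14 day libraries held 72.2, 64.2 and 53.1 CPM.

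glula encodes a glutamine synthetase, the enzyme with which astroglia turn glutamate into glutamine, and which muscle and other tissues also make. Like mag, it rose, fell and rose again after 2 day. It fell by 2.04 on the log2 scale from 748, 874 and 951 CPM at 1 somite to 173, 213 and 219 CPM at 25 hpf (SE 0.11, edgeR adjusted p = 1.81e-10), and by 0.43 to 148, 160 and 119 CPM at 2 day (SE 0.13, 0.00924). It rose by 1.29 ± 0.15 to 308, 331 and 410 CPM at 5 day, fell by 1.02 with an SE of 0.13 to 152, 173 and 179 CPM at 9 day and rose by 0.62 ± 0.12 to 279, 242 and 253 CPM at 14 day. None of these neighbouring groups overlapped (edgeR adjusted p = 1.66e-05, 0.000136 and 0.00473 for the last 3 steps).

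Over the 5 wild-type steps, 26 member changes passed, 23 of them with any 1 library left out. From 1 somite to 25 hpf 5 of the 5 members with enough counts changed (3 higher), where 76.9% of all genes tested did. From 25 hpf to 2 day it was 5 of 7 (2 higher; 59.7% of all genes), from 2 to 5 day 8 of 9 (5 higher; 61.0%), from 5 to 9 day 3 of 9 (all lower; 49.3%) and from 9 to 14 day 5 of 9 (all higher; 16.8%). Among the genes that fell from 5 to 9 day were 23.9% of all genes. In the last step the 5 genes were mbpa, plp1b, mpz, mag and glula, while 9.32% of all genes were higher.

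**Figure D2:**
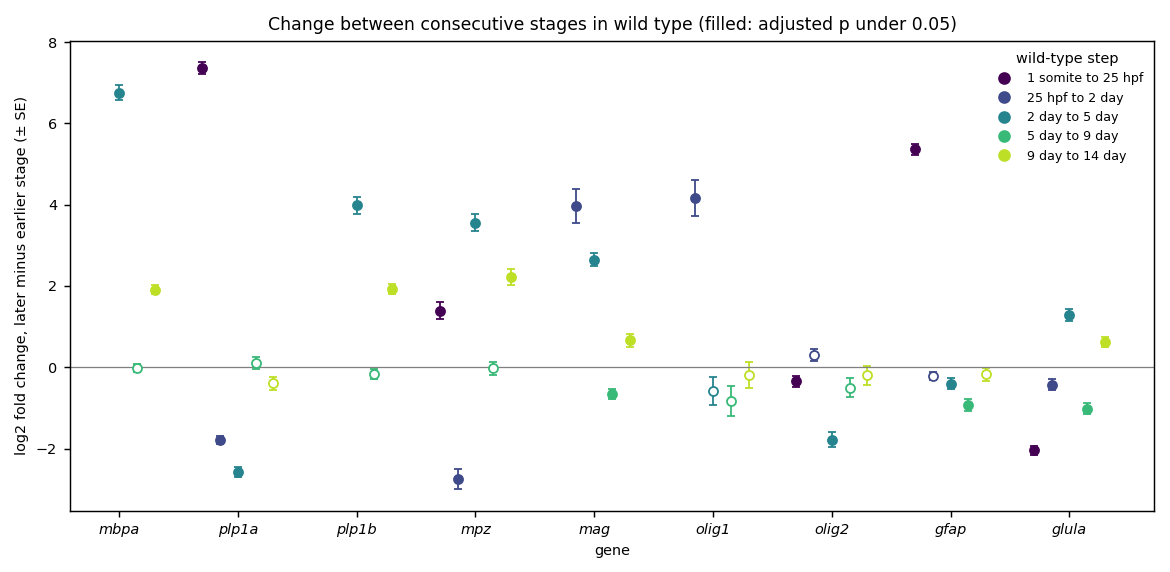
Log2 fold change (later minus earlier stage, bars are ± SE) of each of the 9 genes in the 5 wild-type steps, shown for steps with enough counts to test; filled points passed an adjusted p of 0.05. plp1a stands at 7.36 in the first step and at -2.57 from 2 to 5 day, the step in which mbpa stands at 6.76.

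Other genes of the same cells moved in both directions. Among 30 other oligodendrocyte, Schwann cell and myelin genes, 12 were higher and 10 lower from 2 to 5 day, when 30.8% of all genes were higher and 30.2% lower, and 8 were higher and 1 lower from 9 to 14 day, when 9.32% were higher and 7.46% lower. Those with the smallest p from 2 to 5 day were cd59, which encodes a complement inhibitor, cldnk, which encodes a claudin of zebrafish myelin, mbpb, the paralog of mbpa, and nkx6.1, which encodes a ventral neural tube factor. They stood at 4.12 ± 0.24, 3.15 ± 0.22, 1.56 ± 0.11 and -2.11 ± 0.16. mbpb differed from mbpa in its early level: its wild-type mean was 117 ± 13.2 CPM at 1 somite and 41.7 ± 2.67 at 25 hpf, where mbpa held no count. From 9 to 14 day cd59 rose by 1.84 ± 0.14, pllp, the gene of the myelin protein plasmolipin, by 1.06 ± 0.14, gpr17, which marks maturing oligodendrocyte precursors, by 0.75 ± 0.12 and mbpb by 0.63 ± 0.11.

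Among 23 other genes of radial glia, astroglia and Müller glia, 17 of 21 tested were higher at 25 hpf than at 1 somite, the step of the gfap rise, in which 41.7% of all genes were higher. The fatty acid binding protein gene fabp7a stood at 8.59 ± 0.21, the glutamate transporter gene slc1a3a at 4.62 ± 0.13 and cx43, which encodes a gap junction protein, at 7.0 ± 0.22. From 5 to 9 day 9 of 22 were lower and 3 higher, beside 23.9% and 25.4% of all genes. The glula paralog glulb did not follow glula through the first step: it rose by 0.79 ± 0.09 where glula fell by 2.04. From 5 to 9 day both fell, glulb by 1.00 on the log2 scale and glula by 1.02.

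The remaining question of the design is whether the mutants differed from wild type. At 1 somite 2 of the 5 members with enough counts passed, against 13.6% of all genes. mpz stood at 4.17, 3.01 and 3.87 CPM in wild type and at 0.983, 1.23 and 0.890 CPM in mutants (29, 27 and 32 counts against 8, 10 and 9). All mutant libraries were below all wild-type ones, and mpz was 3.52-fold lower (-1.82 ± 0.31, edgeR adjusted p = 0.00290). This was the one member call between genotypes that held with any 1 library left out and under all other settings tried.

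gfap was higher in mutants at 1 somite. Wild-type libraries held 5.47, 4.35 and 7.01 CPM and mutants 12, 8.09 and 14.4 CPM, so the groups did not overlap. The log2 fold change was 1.06 ± 0.24 (edgeR adjusted p = 0.0149), and the call was lost without wild type 1 (0.0555), wild type 2 (0.0612) or mutant 3 (0.0788). plp1a and olig2 also did not overlap between the genotypes at this stage but missed the threshold. plp1a lay at 1.75 ± 0.526 CPM in wild type and 3.56 ± 0.984 in mutants (1.02 ± 0.33, edgeR adjusted p = 0.0597, and under the threshold in 2 of 6 other settings), and olig2 at 25.6 ± 1.90 and 19.1 ± 1.97 (-0.41 ± 0.13, 0.0591). glula stood at 858 ± 102 and 973 ± 140 CPM (0.19 ± 0.12, edgeR adjusted p = 0.359).

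At 25 hpf the same 2 genes passed in the same directions, 2 of 5 tested against 13.6% of all genes. gfap held 222, 216 and 230 CPM in wild type and 266, 288 and 272 CPM in mutants, with no overlap (0.33 ± 0.07, edgeR adjusted p = 0.00366). It passed with any 1 library left out, but not in a fit of all 36 libraries with 1 shared estimate of spread (0.31, adjusted p = 0.227). That fit called 1473 of 24431 genes at 25 hpf, against 2564 of 18898 in the main fit. mpz held 9.33, 7.89 and 10.7 CPM in wild type and 6.34, 4.60 and 6.24 CPM in mutants, again with no overlap (-0.68 ± 0.19, edgeR adjusted p = 0.0257). Its call was lost without wild type 1 (0.0519), wild type 3 (0.0995) or mutant 2 (0.137), with DESeq2 (0.0811) and in the fit of all 36 libraries (0.0610).

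olig2 was on the other side of wild type at 25 hpf than at 1 somite. Wild-type libraries held 20.8, 16.5 and 21.3 CPM and mutants 25.2, 24.4 and 24.3 CPM, without overlap, and the difference missed the threshold (0.36 ± 0.12, edgeR adjusted p = 0.0541), though not without wild type 3 (0.0451) or without the filter on low counts (0.0449). The change of its mutant effect between these stages was 0.76 ± 0.24 (adjusted p = 0.0521). plp1a stood at 284 ± 13.7 and 321 ± 18.1 CPM (0.20 ± 0.07, edgeR adjusted p = 0.0909) and glula at 202 ± 25.2 and 216 ± 23.7 CPM (0.12 ± 0.09, 0.448). mbpa, plp1b, olig1 and mag had too few counts to be tested at 1 somite and 25 hpf.

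At 2 day no member of the 8 tested passed in edgeR, against 6.86% of all genes. All but plp1a were lower in mutants by their log2 fold change, and olig1, gfap, glula and mag had an unadjusted p under 0.05. No share of all genes is given at that unadjusted threshold, so whether this is more than among other genes was not tested. DESeq2 called 1, glula (adjusted p = 0.0335), and the fit of all 36 libraries called 2, glula (0.0158) and mag (0.0236). Over all genes DESeq2 called 1300 of 20229 and the fit of all 36 libraries 3016 of 24431, against 1388 of 20229 in the main fit. glula also passed without wild type 3 (0.0270), without mutant 1 (0.0469) and without the filter on low counts (0.0372). olig1 held 3.89, 7.0 and 5.09 CPM in wild type and 2.16, 2.61 and 3.30 in mutants (-0.93 ± 0.29, edgeR adjusted p = 0.0767). mag held 5.19, 5.19 and 5.22 CPM in wild type and 1.65, 3.82 and 2.55 in mutants (-0.86 ± 0.30, 0.10). For both of these genes the genotypes did not overlap.

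The radial glia genes were also non-overlapping at 2 day. gfap held 195, 168 and 181 CPM in wild type and 126, 132 and 154 CPM in mutants (-0.33 ± 0.11, edgeR adjusted p = 0.0997), and glula 148, 160 and 119 CPM and 111, 76.4 and 101 CPM (-0.49 ± 0.15, 0.0670). The transcript matched to gfap held 2143.3 counts in wild type and 2005.0 in mutants, beside 4312 and 3327 for the gene. These sums over 3 libraries are not scaled for depth, and the transcript was not tested. mpz (1.30 ± 0.143 and 0.750 ± 0.624 CPM), plp1b (1.59 ± 0.363 and 1.12 ± 0.332), olig2 (22.9 ± 3.91 and 18.0 ± 3.46), plp1a (77.2 ± 2.83 and 75.5 ± 22.5) and mbpa (8, 5 and 7 counts against 1, 9 and 3) all overlapped. Over all genes the number called at this stage rested on single libraries, with 1388 in all, 555 without wild type 1 and 2497 without wild type 3.

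At 5 day none of the 9 members passed in edgeR, DESeq2 or the fit of all 36 libraries, against 14.0% of all genes in edgeR. Only mag had an unadjusted p under 0.05: it held 33.3, 29.9 and 35.7 CPM in wild type and 39.8, 42.2 and 39.3 in mutants, without overlap (0.29 ± 0.11, edgeR adjusted p = 0.102). mbpa held 94.5, 89.3 and 96.9 CPM in wild type and 92.4, 89.9 and 105 in mutants, which overlapped (0.03 ± 0.10). Without wild type 3, mag (0.35, adjusted p = 0.0444) and gfap (0.33, 0.0349) passed as higher. Library sizes alone as scaling moved the median of all genes from 0.005 to -0.169 at this stage. With that scaling plp1a passed as lower (-0.48, adjusted p = 0.0351, against -0.30 ± 0.14 and 0.172 with the main scaling), and mag stood at 0.11.

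At 9 day none of the 9 passed in edgeR, against 1.91% of all genes, and gfap, glula and olig1 had an unadjusted p under 0.05. glula held 152, 173 and 179 CPM in wild type and 229, 200 and 311 in mutants, all above wild type (0.53 ± 0.15, edgeR adjusted p = 0.116). DESeq2 and the fit of all 36 libraries each called 1 member, glula (0.0229 and 0.0352). Over all genes they called 640 of 22138 and 750 of 24431, against 422 of 22143 in the main fit. olig1 was again low in mutants, at 0.817, 1.36 and 1.01 CPM against 1.78, 2.34 and 1.71 (-0.90 ± 0.34, edgeR adjusted p = 0.223). Its log2 fold change was below 0 at all 4 stages at which it was tested, from -0.93 to -0.20, on 30 to 65 counts per mutant group, and no stage passed. The olig1 average over all 6 stages was 0.20 ± 0.23 (edgeR adjusted p = 0.613). That average includes 1 somite and 25 hpf, where mutants held 4 and 7 counts against 0 and 9 in wild type.

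At 14 day glula was the 1 of 9 members that passed, against 4.8% of all genes (2.31% higher). Wild-type libraries held 279, 242 and 253 CPM and mutants 383, 343 and 365 CPM, without overlap, 1.40-fold higher in mutants (0.48 ± 0.12, edgeR adjusted p = 0.0441). The call did not hold when wild type 2 (0.132), wild type 3 (0.112), mutant 1 (0.173), mutant 2 (0.0810) or mutant 3 (0.0895) was left out, nor with library sizes alone as scaling (0.0596), while DESeq2 gave 0.00829. The paralog glulb stood at 188 ± 33.1 CPM in wild type and 228 ± 7.95 in mutants (0.27 ± 0.14, edgeR adjusted p = 0.312).

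By their gene values, the structural myelin genes of the older larvae lay close to wild type. mbpa was within -0.02 to 0.10 of wild type on the log2 scale at 5, 9 and 14 day, with an interval of 2 SE on either side of -0.25 to 0.21 at 14 day. Its 14 day libraries held 327, 332 and 357 CPM in wild type and 355, 340 and 318 in mutants. At the same stage plp1b stood at 84.2 ± 13.3 and 90.8 ± 6.15 CPM (0.10 ± 0.14, interval -0.18 to 0.37), mpz at 68.9 ± 17.5 and 78.1 ± 5.57 (0.17 ± 0.17, -0.17 to 0.51), mag at 32.1 ± 6.34 and 33.2 ± 3.49 (0.04 ± 0.16, -0.28 to 0.35) and plp1a at 10.5 ± 0.437 and 10.1 ± 1.83 (-0.06 ± 0.17, -0.40 to 0.29). These intervals leave out a change of 2-fold in either direction. The same holds for olig2 (0.00 ± 0.22, -0.45 to 0.45) and gfap (0.01 ± 0.15, -0.28 to 0.30). For olig1, on 48 and 45 counts, it holds only narrowly, as the interval is wider (-0.20 ± 0.38, -0.95 to 0.55). The coverage of these intervals of 2 SE was not worked out. The matched mbpa transcript held 847.9, 1183.2 and 1747.4 unscaled counts in wild type at 5, 9 and 14 day. In mutants it held 724.7, 690.9 and 1319.5. The gene mbpa held 2243, 2922 and 9820 counts in wild type and 2423, 2831 and 10433 in mutants. This difference between transcript and gene was not tested. At 14 day the matched gfap transcript held 1020.1 unscaled counts in wild type and 1366.8 in mutants, beside 1806 and 2013 for the gene. It was not tested.

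**Figure D3:**
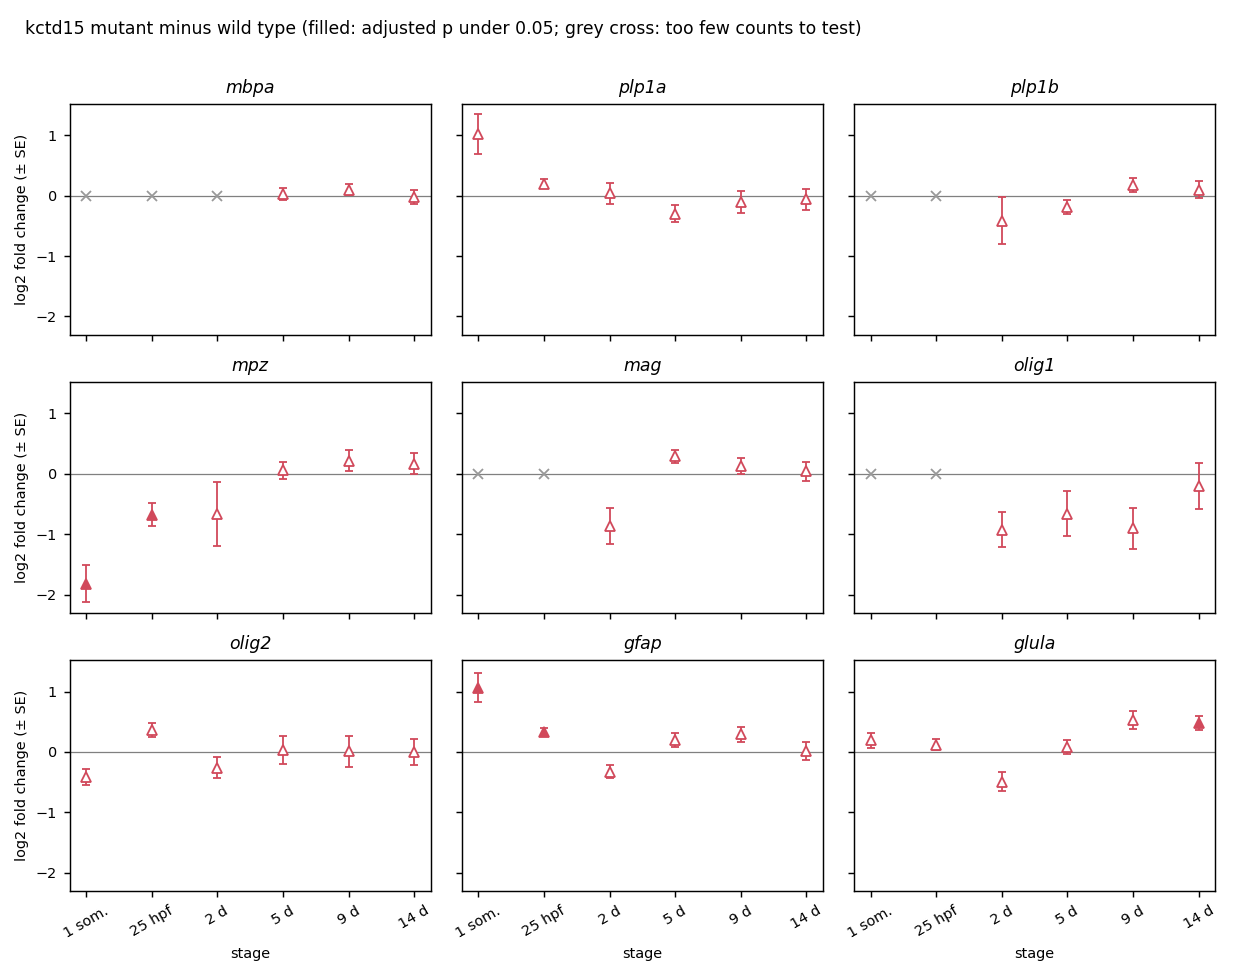
Log2 fold change of mutants against wild type (points, bars are ± SE) for each of the 9 genes at the 6 stages; filled points passed an adjusted p of 0.05 and grey crosses mark stages with too few counts. mpz stands at -1.82 at 1 somite and 0.17 at 14 day, and gfap at 1.06, 0.33 and -0.33 at the first 3 stages.

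A fit of all 36 libraries tested whether the mutant effect differed between the stages, and 4 of the 9 members passed, against 25.5% of all genes: mpz (edgeR adjusted p = 0.000848), gfap (0.00150), glula (0.00275) and mag (0.0450). Between neighbouring stages, gfap passed for a change of its effect by -0.71 ± 0.20 from 25 hpf to 2 day (edgeR adjusted p = 0.0292), 1 of 9 members against 5.86% of all genes (2.75% in this direction). It no longer passed when wild type 1, wild type 2 or mutant 2 of 25 hpf, or wild type 1, mutant 1 or mutant 2 of 2 day, was left out (adjusted p = 0.0591 to 0.0892). From 2 to 5 day mag passed with 1.21 ± 0.32 (0.0155) and glula with 0.66 ± 0.22 (0.0490), 2 of 9 against 9.23% (4.51% in this direction), and gfap missed with 0.61 ± 0.20 (0.0510). With 1 library left out, the mag call held in 35 of 36 fits and the glula call in 15, and mag passed the test over all stages in 18, and not with RLE size factors (another scaling, 0.0571), library sizes alone (0.133) or no filter (0.0548). These neighbouring contrasts share the 2 day libraries, in which the mutant values of all 3 genes were lowest against wild type. None passed in the 3 other neighbouring pairs, against 6.31%, 2.65% and 1.11% of all genes. Averaged over the 6 stages, mpz was lower (-0.46 ± 0.11, edgeR adjusted p = 0.00383) and gfap higher (0.25 ± 0.06, 0.00433), 2 of 9 against 20.5%, and both held with any 1 of the 36 libraries left out. These averages do not stand for every stage. Effects fitted at single stages ran from -1.82 to 0.22 for mpz and from -0.33 to 1.06 for gfap, each with its largest size at 1 somite.

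Other genes of the myelinating cells were called in mutants at shares below those of all genes. These rest on a few calls per stage, and the difference from all genes was not tested. Of 30 such genes, 2 of 24 tested were higher at 1 somite (8.33%), 2 of 27 higher and 1 lower at 25 hpf (11.1%), 1 of 28 lower at 2 day (3.57%), 2 of 30 lower at 5 day (6.67%) and 1 of 30 lower at 14 day (3.33%). The shares of all genes called at these stages were 13.6, 13.6, 6.86, 14.0 and 4.8%. At 9 day 0 of 30 passed in edgeR (beside 1.91% of all genes) and in DESeq2, with 4 at an unadjusted p under 0.05 in edgeR. The median log2 fold change of the list stayed between -0.10 and 0.05, and with library sizes alone as scaling the 5 day count was 5 lower. With that scaling 3586 of all 21510 genes tested were lower at 5 day, against 1686 with the main scaling. The stage calls that held with any 1 library left out were enpp6, which encodes a phosphodiesterase of newly forming oligodendrocytes, at 1 somite (1.70 ± 0.34, 0.923 to 3.08 CPM) and pou3f1, which encodes a Schwann cell factor also made in neurons, at 25 hpf (0.33 ± 0.08, 119 to 148 CPM). ugt8, whose product makes the galactolipid of myelin, was lower at 25 hpf (-0.58 ± 0.14, 16.1 to 10.6 CPM, edgeR adjusted p = 0.00888, 0.0554 without mutant 2) and at 5 day (-0.61 ± 0.15, 34.6 to 22.7 CPM). The 5 day call of ugt8 did not hold without wild type 1 (0.0674), wild type 2 (0.0715), mutant 1 (0.0797) or mutant 2 (0.101). nkx2.2a at 2 day (-0.49 ± 0.13), cldnk at 5 day (-0.45 ± 0.13) and pllp at 14 day (-0.63 ± 0.14) passed with all libraries and kept their calls in 1, 0 and 0 of the 6 fits with 1 library left out. Averaged over the 6 stages, 2 of the 30 were higher and 4 lower (beside 20.5% of all genes called), among them enpp6 (0.48 ± 0.09, edgeR adjusted p = 0.00032), cldnk (-0.52 ± 0.11, 0.000725) and ugt8 (-0.28 ± 0.07, 0.00677), and these 3 held in 36 of 36 fits with 1 library left out.

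Radial glia and astroglia genes were called in both directions at the first 4 stages. Of 23 such genes, 2 of 13 tested were higher and 5 lower at 1 somite (53.8%), 4 of 21 higher and 1 lower at 25 hpf (23.8%), 1 of 22 higher and 5 lower at 2 day (27.3%) and 4 of 22 higher and 2 lower at 5 day (27.3%). The shares of all genes called at these 4 stages were 13.6, 13.6, 6.86 and 14.0%. The 1 higher gene at 2 day was the glula paralog glulc, at a low level (2.04 ± 0.51, 0.374 to 1.54 CPM, edgeR adjusted p = 0.0348). In edgeR 0 passed at 9 day (2 at an unadjusted p under 0.05, 0 in DESeq2) and 0 at 14 day (5 unadjusted, 1 in DESeq2), beside 1.91 and 4.8% of all genes. With library sizes alone as scaling, the splits were 2 higher and 3 lower at 1 somite, 2 and 1 at 25 hpf and 1 and 6 at 5 day. Over all genes that scaling gave 1395 higher and 915 lower of 16844 at 1 somite. It gave 984 and 1740 of 18898 at 25 hpf, and 569 and 3586 of 21510 at 5 day. her4.2, a Notch target of neural progenitors that has near-identical neighbours between which the authors' counting could split reads, was lower at 1 somite (-1.52, 5.22 to 1.79 CPM), 25 hpf (-1.78, 65.0 to 18.6 CPM), 2 day (-2.33, 31.7 to 5.83 CPM) and 5 day (-1.53, 4.66 to 1.61 CPM). The first 3 calls held with any 1 library left out. ptgdsb, which encodes a lipocalin-type prostaglandin D synthase, was lower at 1 somite (-1.97 ± 0.17, 301 to 77.1 CPM) and 5 day (-1.07 ± 0.12, 1021 to 488 CPM).

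In the direction of gfap at 25 hpf, fabp7a (0.78 ± 0.09, 129 to 218 CPM) and the glutamate transporter gene slc1a2b (0.45 ± 0.09, 32.1 to 43.2 CPM) were higher in mutants. At 1 somite the glutamate transporter gene slc1a3a was higher (0.96 ± 0.19, 6.86 to 13.3 CPM) and the intermediate filament gene vim lower (-0.55 ± 0.12, 36.3 to 24.6 CPM), whereas at 5 day vim was higher (0.89 ± 0.10, 84.4 to 157 CPM). At 2 day the Müller glia gene rlbp1a was lower (-1.06 ± 0.21, 18.6 to 8.50 CPM, edgeR adjusted p = 0.0134, 0.0632 without wild type 1).

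Markers of other cells moved alongside at some stages, and their part in the member results was not tested. For the marker counts here and in the next paragraph, the shares of all genes called were 13.6% at 1 somite and 25 hpf. They were 6.86% at 2 day, 14.0% at 5 day and 4.8% at 14 day. At 25 hpf, where gfap was higher, 5 of 23 neuronal markers were higher and 0 lower, led by the neurofilament gene nefma (1.32 ± 0.16), and the summed level of the 24 neuronal markers ran from 907 to 925 CPM in wild type and 908 to 1068 in mutants. At the same stage 10 of 12 fast muscle markers were higher, with sums of 14706 to 16063 CPM in wild type and 22162 to 23484 in mutants, and 5 of 8 liver markers were higher. At 1 somite, where mpz was lower and gfap higher, 1 of 9 neuronal markers was higher and 1 lower, the summed neuronal level was 62.5 to 80.4 CPM and 56.6 to 83.3, and snap25a and chata were at 0 counts in both genotypes. Of 4 fast muscle markers tested 0 passed in edgeR and in DESeq2 (2 unadjusted in edgeR). Of 7 liver markers 1 was higher and 2 lower, with sums of 1281 to 1483 CPM in wild type and 1114 to 1273 in mutants, and of 2 microglia and macrophage markers tested 1 was lower (lcp1, the gene of a leukocyte actin-bundling protein, -2.54 ± 0.32).

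At 14 day, where glula was higher, 0 of 23 neuronal markers passed in edgeR, with 9 higher at an unadjusted p under 0.05 and 1 in DESeq2, and their sums ran from 1311 to 1693 CPM in wild type and 1414 to 1999 in mutants. Of 12 fast muscle markers 1 was higher, and the summed muscle level was 88611 to 111649 CPM in wild type and 100239 to 110310 in mutants. Of 7 microglia and macrophage markers 2 were lower at 14 day (4 unadjusted, all lower), with sums of 766 to 1048 CPM in wild type and 887 to 1039 in mutants. Lower too were 1 of 10 liver markers (ttr) and 1 of 10 neural crest markers (foxd3). Each of these 2 calls was lost in at least 1 fit with 1 library left out. The same holds for the 14 day calls of the fast muscle marker (atp2a1) and both microglia and macrophage markers (mpeg1.1 and lcp1). At 2 day, neural progenitor markers summed to 528 to 593 CPM in wild type and 461 to 543 in mutants, and neuronal markers to 2434 to 2694 and 1885 to 2511. At that stage 2 of 24 neuronal markers passed in edgeR, nefmb and stmn2b, both lower, and 3 passed in DESeq2. In edgeR 10 had an unadjusted p under 0.05, 8 lower and 2 higher. The nefmb and stmn2b calls were each lost in at least 1 fit with 1 library left out. Of 12 neural progenitor markers 1 was lower at 1 somite, 2 were higher at 25 hpf (ascl1a and ascl1b, which encode proneural factors, each 0.38), 1 was lower at 2 day (ascl1a, -0.74), 1 was higher at 5 day, and 1 was higher and 1 lower at 14 day. The ascl1a call at 25 hpf missed the threshold without wild type 2 (0.0793) or mutant 2 (0.0752), and that at 2 day held in 1 of 6 fits with 1 library left out (adjusted p up to 0.124). No neuronal, neural progenitor, fast muscle or liver marker was at 0 counts in any group from 25 hpf on. Of 10 neural crest markers, 1 was higher (the pigment cell factor gene mitfa, 0.50 ± 0.14) and 1 lower (crestin, -0.54 ± 0.09) at 25 hpf, where mpz was lower, and 0 of 8 tested passed at 1 somite in edgeR (2 unadjusted, 0 in DESeq2). The mitfa call missed the threshold without wild type 1 (0.0952), wild type 2 (0.0974), mutant 1 (0.0657) or mutant 2 (0.102). At 5 day, where no member passed, 9 of 12 fast muscle markers were higher and 0 lower, with sums of 48334 to 51287 CPM in wild type and 67268 to 70998 in mutants. At that stage 2 of 24 neuronal markers were higher (12 at an unadjusted p under 0.05, all higher), with sums of 2334 to 2963 CPM and 2815 to 3517. In the same larvae 5 of 7 microglia and macrophage markers were lower in mutants, among them mpeg1.1 (-1.50 ± 0.21, 19.8 to 7.01 CPM).

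The transcript table splits plp1b over 4 RefSeq transcripts, 1 curated and 3 predicted by model. At 14 day the curated transcript held 8.08, 19.7 and 18.2% of the plp1b counts in wild type and 64.5, 37.3 and 40.5% in mutants. One model transcript took the other side, at 63.9, 43.3 and 61.6% in wild type and 16.2, 35.8 and 34.0% in mutants. For both transcripts the genotypes did not overlap, while the plp1b total did. The exact two-sided permutation test gave p = 0.10 for each, which is the smallest that 3 against 3 libraries allow, and 0.480 after adjustment over 12 comparisons. At 5 and 9 day the curated transcript held 32.0 ± 12.5 and 28.7 ± 8.82% in wild type and 38.1 ± 16.0 and 31.4 ± 17.5% in mutants, with overlap, and the shares are estimates that divide reads shared by the transcripts. This gene was singled out after its values were seen.

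**Figure D4:**
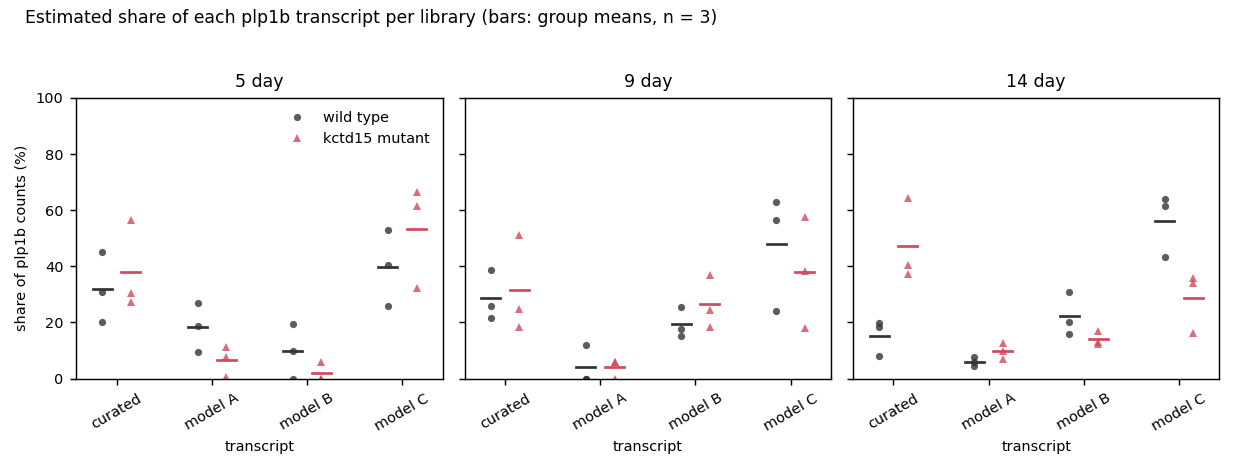
Share of the plp1b counts, in percent, estimated for each of 4 transcripts in every library (wild type as circles, mutants as triangles, bars are means of 3) at 5, 9 and 14 day. At 14 day the curated transcript averages 15.3% in wild type and 47.4% in mutants, and model C 56.3% and 28.7%.

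For 5 of the genes the most alike courses were sought among 12923 genes, as the root mean square difference of log2 CPM over the 12 group means after centring. Nearest to mbpa were cyp2ad2 (0.65), tnni2a.1 (0.657) and cpa1 (0.686), where the median gene lay at 4.5. Nearest to plp1b were mybpc2a (0.479), crygn1 (0.515) and cyp2k19 (0.532), with a median of 3.27. For gfap they were slc6a9 (0.346), znf516 (0.361) and ncam1b (0.373), with a median of 1.77. For glula they were slc12a1 (0.295), btd (0.31) and rltgr (0.324), with a median of 1.11, and for olig2 znf281a (0.22), tmeff1b (0.236) and skida1 (0.253), with a median of 1.14. These distances describe likeness across whole animals of 6 stages and carry no test.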

How the data were processed

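RNA was measured in 36 whole-animal libraries. Per the submitters' processing notes, the authors used Trimmomatic 0.36, kallisto 0.43.0, edgeR (version not given in the sources used here) and build GRCz10. The deposited gene table (30490 genes) and transcript table (54435 transcripts) hold expected counts, estimated and not normalized, and 84.1% of the gene values are not whole. They were rounded here. A gene value can hold more than its matched transcripts: these sum to 21.2% of the gene value for mbpa, 55.6% for gfap, 0.3% for mag and 96.6 to 101.1% for the other 6. The authors' normalized table was not used.

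Replicates differed by a chi-square per degree of freedom of 2.61 to 15.3, so none was a duplicate. Each comparison used edgeR 4.0.16 in R 4.3.3 (filterByExpr, TMM, quasi-likelihood test) with Benjamini-Hochberg adjustment over all genes tested. Stages were fitted alone, except for the averaged, interaction and change-of-effect tests, which used all 36 libraries. An SE is the fold change over the root of the F statistic. Alternatives were RLE factors, library size only, no filter, a replicate block, DESeq2 1.42.0, the fit of all 36 libraries and leaving out each library. Replicates are biological per the labels.

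Members and lists (132 entries in 8 lists, 128 matched, 2 by synonym) were chosen with earlier results of these data known. Named are all members, kctd15a and kctd15b, up to 4 called genes per list and comparison by smallest p, and the 3 nearest courses of 5 genes. The paralogs glulb, glulc and mbpb were added after their values were seen. Gene neighbours and transcript names come from a RefSeq table of assembly GRCz12tu, and no sequence was used. Bounds and intervals on low counts cover counting error only.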

Additional observations from a re-analysis of the deposited data

Results flagged for a closer look

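The mutant effect differed between stages for 4 members by the interaction test in edgeR: mpz (adjusted p = 0.000848), gfap (0.00150), glula (0.00275) and mag (0.0450, lost in 18 of the 36 fits that leave out 1 library, with RLE factors at 0.0571, with library size only at 0.133 and without a filter at 0.0548). mag held at most 6 counts per library at 1 somite and 25 hpf, and its matched transcript holds 0.3% of its counts. The matched transcript of gfap holds 55.6%. Between neighbouring stages the effect on gfap changed by -0.71 from 25 hpf to 2 day (adjusted p = 0.0292), and from 2 to 5 day it changed by 0.66 for glula (0.0490) and by 1.21 for mag (0.0155). No explanation for these differences was tested.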

How the results depend on the processing

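No result changed direction past the threshold, and of the single-gene values under other settings 3306 kept their side of it, 79 lost the call and 60 gained one. Of the 26 wild-type calls 23 held under every setting run. Member counts between genotypes moved more. With DESeq2 they were 1 at 25 hpf (2 in edgeR), 1 at 2 day (0) and 1 at 9 day (0), and in the fit of all 36 libraries 3 at 1 somite (2; plp1a gained, 0.0203), 0 at 25 hpf, 2 at 2 day and 1 at 9 day. Counts over all genes moved too. DESeq2 called 1735 of 18898 at 25 hpf, 1300 of 20229 at 2 day and 640 of 22138 at 9 day. The main fits called 2564 of 18898, 1388 of 20229 and 422 of 22143 there, and 2285 of 16844 at 1 somite. Of 24431 genes, the fit of all 36 libraries called 2807 at 1 somite, 1473 at 25 hpf, 3016 at 2 day and 750 at 9 day. With library size only the member counts were 1 at 5 day (0) and 0 at 14 day (1), and without a filter 3 at 1 somite (plp1a gained, 0.0382), 3 at 25 hpf (olig2 gained, 0.0449) and 1 at 2 day. Over all genes, library size only called 4155 of 21510 at 5 day and 1045 of 22335 at 14 day, against 3014 and 1073 in the main fits. Without a filter 2908 of 27140 were called at 1 somite, 3099 of 27848 at 25 hpf and 1865 of 28192 at 2 day. The interaction passed for 3 members with RLE factors or no filter (4), and with library size only mag was lost and plp1a gained (0.0219). No share of all genes is given for the interaction in these settings (25.5% in the main fit). Whether the members moved with all genes was therefore not tested. Changes of the mutant effect from 1 somite to 25 hpf passed for 1 member with RLE factors, library size only or the replicate block (0 in the main fit). From 25 hpf to 2 day 0 passed with library size only (1). From 2 to 5 day 1 passed with RLE factors, no filter or the replicate block and 0 with library size only (2). Of 24431 genes, the first change passed for 1541 (main), 1506 (RLE), 1835 (library size only) and 986 (replicate block). The change from 25 hpf to 2 day passed for 1431 (main) and 1357 (library size only). That from 2 to 5 day passed for 2256 (main), 2102 (RLE), 2478 (library size only) and 1233 (replicate block). Without a filter it passed for 2000 of 29925.

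With 1 library left out, the count of members ran from 1 to 2 at 1 somite, 1 to 2 at 25 hpf, 0 to 1 at 2 day, 0 to 2 at 5 day and 0 to 1 at 14 day, and for the changes of effect from 0 to 1, 0 to 3 and 1 to 3 in the first 3 pairs of stages. The count over all genes ran from 1397 to 2862, 1725 to 2411, 555 to 2497, 1381 to 4723 and 556 to 1059 at these stages. For the changes of effect it ran from 1029 to 1709, 690 to 2375 and 1053 to 3407. The cause was not tested. Replicate numbers did not pair samples: the correlation of same-numbered deviations ran from -0.24 to 0.08 over the comparisons of 2 groups, and every library was most like its own number in 1 of them, wild type from 1 somite to 25 hpf. With the replicate block the 14 day count was 0 (glula, adjusted p = 0.0855) and the 25 hpf count 3 (olig2 gained, 0.37, 0.0463). Over all genes the block called 735 of 22335 at 14 day and 2560 of 18898 at 25 hpf, against 1073 and 2564 without it. Depth limits plp1b, olig1 and mag before 2 day, mbpa up to and including 2 day (20 counts in wild type and 13 in mutants, not tested) and olig1 throughout.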
